A study of Mus musculus with 12 samples.

Results

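T cells need a costimulatory signal beside that of the antigen receptor. Cd28 and Icos encode receptors of the CD28 family that deliver such a signal, and Cd2 encodes an adhesion receptor that does so on binding CD48. Ctla4 competes with CD28 for the ligands CD80 and CD86, and it acts with Pdcd1, which encodes PD-1, and Btla as a brake on activation. Cd5 and Cd6 encode scavenger receptor cysteine-rich proteins that tune signalling through the antigen receptor. The 8 genes were described here through the accessible regions that lie nearest to their promoters in mouse blood cells. ATAC-seq marks such regions by where a transposase can insert into chromatin. The genes were chosen by name, and a peak was counted for a gene when the annotation gave that gene as its nearest promoter. By this rule 83 of the 84243 peaks in the deposited master peak-list belonged to the 8 genes, out of 19040 genes named in the list.

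The study covered 6 cell types, each with 2 replicates, from untreated wild-type C57BL/6 mice aged 8 to 12 weeks. Bone marrow gave hematopoietic stem cells (HSCs, cKit+ Lin- Sca1+ Flk2- Slamf1+), megakaryocyte progenitors (MkPs, cKit+ Lin- Sca1- Slamf1- CD41+), erythroid progenitors (EPs, Lin- CD71+ Ter119±), granulocyte/macrophages (GMs, Lin- Gr1+ Mac1+) and B cells (Lin- CD43- B220+), while the T cells (Lin- CD25- CD3+ CD4± CD8±) are labelled as thymus. CD5, the product of one of the 8 genes, was among the lineage antigens that the stated gates exclude for HSCs, MkPs, EPs, GMs and T cells, but not for B cells. The list pools all 12 samples and holds 0 columns of values per sample. A peak therefore shows that a region was called in at least 1 cell type, and not in which. No comparison between cell types or replicates could be made, and the counts below carry no replicate error. All peaks had 1 width, just under 500 bp, the score was 0 throughout and the depth behind a peak is unknown.

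Consensus letters of 6 motif families tied to the T lineage were searched on both strands of each peak, without mismatches. They were AGGAAG for ETS factors, TGTGGT for RUNX factors, CTTTGA for TCF/LEF factors, AGATAA for the GATA family of factors, CAGCTG for the E-box of E2A and HEB and CAGGTG for the E-box of ZEB and Slug. Matches are marked in capitals in the sequences below, in either orientation, and a match is a string of letters rather than a known binding site. The promoters of 4 genes are shown because the promoter is the feature that all 8 genes shared. They are the 250 bases upstream of the transcription start site (TSS), on the strand of the gene, from the RefSeq promoter table for GRCm38.p6 (mm10), which held Ctla4, Pdcd1, Btla and Cd5. Each run lay wholly inside the promoter peak of its gene. The positions were chr1:60908775-60909024 (plus strand), chr1:94052554-94052803 (minus), chr16:45224087-45224336 (plus) and chr19:10738975-10739224 (minus).
Ctla4 promoter: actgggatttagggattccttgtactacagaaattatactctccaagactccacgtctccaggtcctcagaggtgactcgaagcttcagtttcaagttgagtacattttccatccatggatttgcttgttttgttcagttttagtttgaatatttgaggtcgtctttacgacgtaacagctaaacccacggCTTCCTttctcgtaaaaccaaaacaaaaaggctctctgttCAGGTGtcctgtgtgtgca
Pdcd1 promoter: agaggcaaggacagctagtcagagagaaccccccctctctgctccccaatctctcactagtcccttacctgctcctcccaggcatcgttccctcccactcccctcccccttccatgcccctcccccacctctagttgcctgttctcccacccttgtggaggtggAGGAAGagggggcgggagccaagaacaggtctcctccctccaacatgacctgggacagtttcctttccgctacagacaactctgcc
Btla promoter: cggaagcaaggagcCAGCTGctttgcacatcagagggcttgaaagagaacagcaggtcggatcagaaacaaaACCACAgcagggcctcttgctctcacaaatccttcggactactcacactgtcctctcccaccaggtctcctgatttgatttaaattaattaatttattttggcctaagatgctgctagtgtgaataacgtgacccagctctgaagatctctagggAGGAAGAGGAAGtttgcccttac
Cd5 promoter: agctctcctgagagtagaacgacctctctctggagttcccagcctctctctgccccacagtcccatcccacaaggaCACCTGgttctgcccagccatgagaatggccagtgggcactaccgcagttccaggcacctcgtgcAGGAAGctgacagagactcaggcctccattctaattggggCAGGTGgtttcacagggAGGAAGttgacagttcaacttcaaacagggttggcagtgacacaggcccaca

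Each of the 4 runs held the ETS letters, which 29.2% of all 27025 RefSeq promoters of this length also held. In Btla the letters stood 2 times in direct succession, from base 228 to base 239 of the run. In Cd5 they stood 2 times as well, and the ZEB/Slug letters (17.1% of promoters) 2 times, once on each strand. Ctla4 had 1 ETS match, at bases 192 to 197, and 1 ZEB/Slug match, at bases 232 to 237. Btla alone among the 4 held the RUNX letters (14.2% of promoters), at bases 73 to 78, and the E2A/HEB letters (12.8%), at bases 15 to 20. None of the 4 held the TCF/LEF letters (14.0%) or the GATA letters (10.3%). Outside the 6 families, Pdcd1 held GGGCGG, the letters of the SP and KLF factors, at bases 174 to 179. In all RefSeq promoters their share was 32.9%.

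A further 5 stretches are shown from peaks outside promoters, each taken from the central 300 bases of a peak. Of these, 3 were the peaks with matches of 5 of the 6 families over their full width (3.61% of the 83, 95% Wilson interval 1.24 to 10.1%, here and below for the error of counting alone), as 2.27% of all peaks had 5 or more. They lay in intron 1 of Cd28 (chr1:60758284-60758583, plus strand), beyond Icos (chr1:61135657-61135956, plus strand) and upstream of Cd2 (chr3:101323424-101323723, minus strand). The other 2 overlapped predicted RefSeq start sites, at chr1:60862957-60863256 in the space before Ctla4 and at chr1:60960518-60960772 before Icos, where the run ended at the predicted start after 255 bases. A peak 48.2 kb before Ctla4 also overlapped a predicted start site and is not printed. Its central 300 bases held letters of 1 of the 6 families, GATA. Each printed stretch is named by its distance in kb from the TSS of the gene.
Cd28 +12.0 kb: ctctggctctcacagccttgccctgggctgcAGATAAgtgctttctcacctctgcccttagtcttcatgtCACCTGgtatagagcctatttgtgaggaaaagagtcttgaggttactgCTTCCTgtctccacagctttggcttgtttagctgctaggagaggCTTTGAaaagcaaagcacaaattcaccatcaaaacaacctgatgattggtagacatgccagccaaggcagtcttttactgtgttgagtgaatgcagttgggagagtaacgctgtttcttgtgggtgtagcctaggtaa
Icos +157.9 kb: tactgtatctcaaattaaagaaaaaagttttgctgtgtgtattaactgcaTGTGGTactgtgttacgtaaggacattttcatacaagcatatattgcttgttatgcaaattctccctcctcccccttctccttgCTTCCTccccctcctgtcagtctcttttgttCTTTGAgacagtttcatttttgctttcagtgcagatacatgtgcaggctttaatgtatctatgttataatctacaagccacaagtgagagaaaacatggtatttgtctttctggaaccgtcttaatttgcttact
Cd2 -35.6 kb: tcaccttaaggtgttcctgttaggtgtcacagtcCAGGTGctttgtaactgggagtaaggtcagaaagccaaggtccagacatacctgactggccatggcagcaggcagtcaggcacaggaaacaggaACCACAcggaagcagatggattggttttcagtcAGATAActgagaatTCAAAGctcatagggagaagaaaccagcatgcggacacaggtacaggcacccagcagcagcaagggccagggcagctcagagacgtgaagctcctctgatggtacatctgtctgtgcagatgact
Ctla4 -45.9 kb: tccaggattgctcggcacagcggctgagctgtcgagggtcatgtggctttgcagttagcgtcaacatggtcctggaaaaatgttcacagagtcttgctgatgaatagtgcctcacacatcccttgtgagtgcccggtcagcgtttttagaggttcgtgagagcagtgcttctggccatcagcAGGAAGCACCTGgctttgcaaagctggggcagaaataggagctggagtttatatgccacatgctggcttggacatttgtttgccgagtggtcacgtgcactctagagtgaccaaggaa
Icos -17.2 kb: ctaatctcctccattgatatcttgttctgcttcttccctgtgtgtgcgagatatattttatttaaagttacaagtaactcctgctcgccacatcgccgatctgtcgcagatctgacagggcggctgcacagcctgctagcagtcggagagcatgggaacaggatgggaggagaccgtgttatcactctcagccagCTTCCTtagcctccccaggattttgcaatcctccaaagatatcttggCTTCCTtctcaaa

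The Cd28 and Cd2 runs each held letters of 4 families in these central bases, and the Icos run at 157.9 kb those of 3. The 4 families in the Cd28 run were ETS, TCF/LEF, GATA and ZEB/Slug. The Cd2 run held RUNX, TCF/LEF, GATA and ZEB/Slug, with the GATA and TCF/LEF matches between bases 162 and 181. In the run before Ctla4, an ETS match at bases 183 to 188 was followed at once by a ZEB/Slug match at bases 189 to 194. The Icos run at the predicted start held 2 ETS matches and 1 SP/KLF match, the only SP/KLF match among the 38 peaks of the Cd28-Ctla4-Icos region.

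The 8 genes differed in the number of peaks. Cd2 had 16, Cd28 14, Ctla4 and Icos 12 each, Btla 11, Pdcd1 and Cd6 8 each and Cd5 2. The median was 11.5 peaks per gene, against 3 over the 19040 genes named in the list and 2 over all 20971 RefSeq Select genes (1 chosen transcript per protein-coding gene) when genes with no peak counted as 0. As many peaks as Cd2 were found for 3.56% of the named genes, as many as Cd28 for 5.06%, as many as Ctla4 or Icos for 7.09% and as many as Btla for 8.60%. For Pdcd1 and Cd6 this share was 15.8%, and for Cd5 it was 74.6%. All but Cd5 thus stood above the median of the list. Such a count also depends on the space a gene has. The space nearer to a gene's TSS than to any other RefSeq Select TSS had a median of 49.5 kb. For the 8 genes it ran from 51.8 kb at Cd6 to 646.6 kb at Pdcd1. Per 100 kb of this space, Pdcd1 had 1.55 peaks and Icos 3.84, below the median of 4.48 over all genes. The others ran from 8.18 at Cd28 to 15.4 at Cd6. The number for Cd5 rested on the annotation, as described with that gene.

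**Figure D1:**
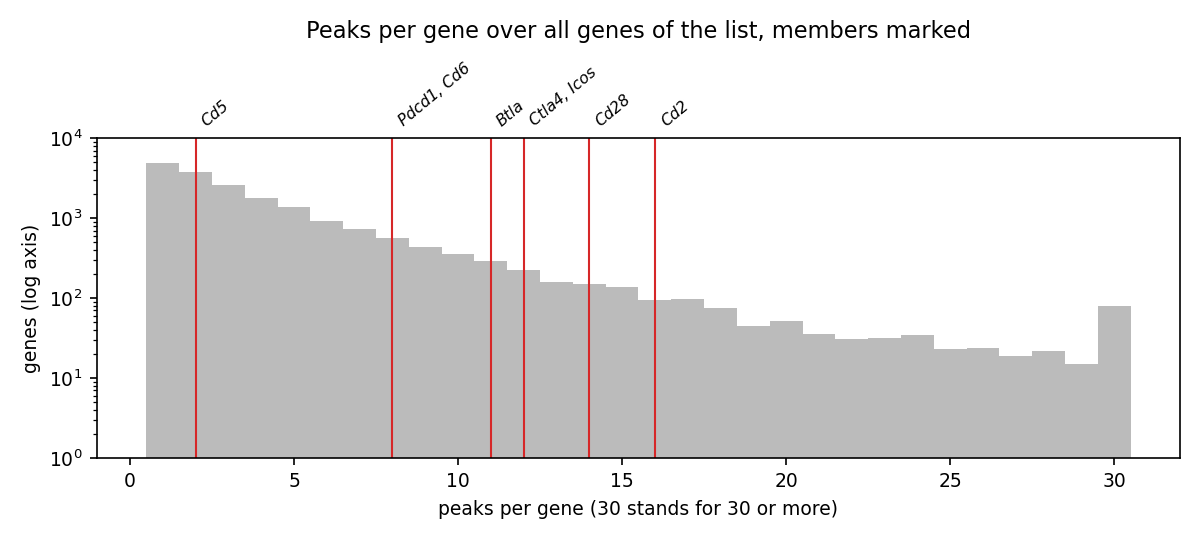
Number of genes (log axis) by the number of peaks for which they are the nearest promoter, over the 19040 genes named in the list; red lines mark the 8 genes. Cd2 with 16 peaks and Cd28 with 14 stood farthest to the right, and Cd5 with 2 stood below the median of 3.

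Every one of the 8 genes had a promoter peak, that is, a peak with its centre within 500 bp of a TSS (8 of 8, where 55.2% of the 20971 RefSeq Select genes had one). The centres lay 0 bp from the TSS at Cd28, 5 bp upstream at Cd5, 10 bp upstream at Ctla4, 25 bp upstream at Pdcd1, 44 bp downstream at Cd6 and 47 bp upstream at Icos. At Btla and Cd2 the peak was set farther upstream, at 240 and 281 bp. With a limit of 100 bp these latter 2 genes no longer counted, which left 6.

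The promoter peaks were poor in CpG. The ratio of observed to expected CpG dinucleotides was under 0.6 in 8 of 8, where 24.3% of the 13171 promoter peaks of the list were under that limit. From low to high the ratio was 0.116 at Cd28, 0.168 at Cd5, 0.181 at Pdcd1, 0.198 at Cd2, 0.236 at Btla, 0.261 at Cd6, 0.311 at Icos and 0.378 at Ctla4. The median was 0.217, against 0.778 for all promoter peaks. The share of G and C ran from 41.1% at Icos to 59.5% at Pdcd1, and each was below the median of all promoter peaks, 63.3%. The median of the 8 was 47.9%. The SP/KLF letters occurred in 1 of the 8 promoter peaks, that of Pdcd1, and in 75.7% of all promoter peaks. The ETS letters occurred in 7 of 8, all but Cd28 (interval 52.9 to 97.8%), and in 48.1% of all promoter peaks. RUNX letters were present at Cd28, Icos, Btla, Cd2 and Cd6, 5 of 8 (interval 30.6 to 86.3%) against 19.6%. All non-promoter peaks of the list, with a median CpG ratio of 0.220, had ETS letters in 65.0% and RUNX letters in 42.5%. The part of base composition in these promoter shares was not tested. Low CpG promoters were not particular to the 8 genes. Among 19 other receptors that promote or restrain T cell activation, 14 had a promoter peak, and in 13 of these 14 the ratio was under 0.6. For the ligands of the 8 receptors this held for 4 of 7 genes with a promoter peak, and for signalling genes below the receptors for 13 of 19 genes.

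**Figure D2:**
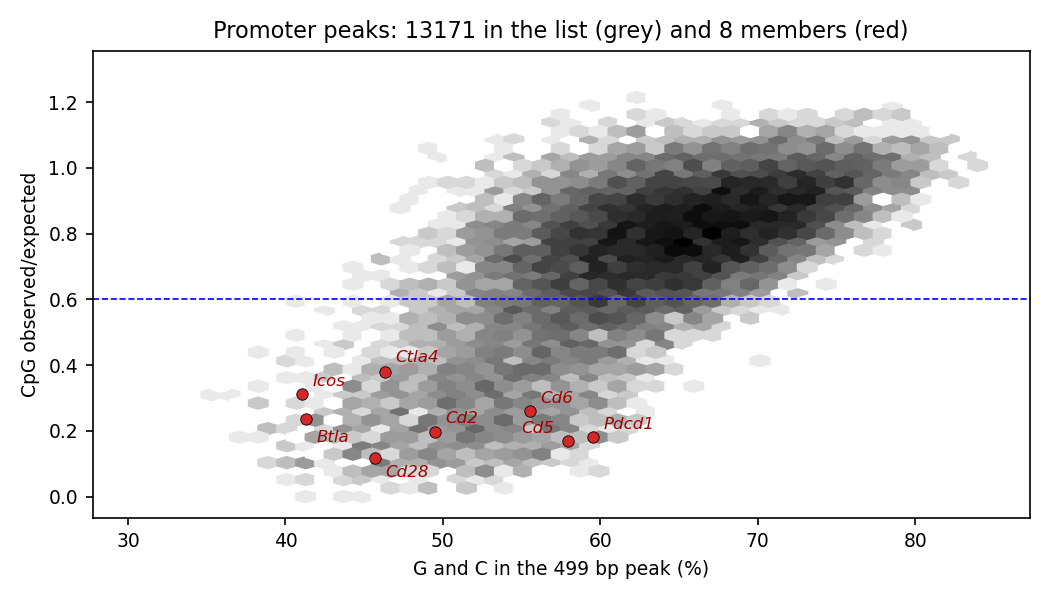
CpG observed/expected ratio against the share of G and C in percent for the 13171 promoter peaks of the list, with darker cells holding more peaks on a log scale; red points are the promoter peaks of the 8 genes and the dashed line is the limit of 0.6. The 8 points lay between 0.116 and 0.378 and spread from 41.1 to 59.5% G and C.

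Away from promoters, the peaks were mostly intergenic. Of the 83 peaks, 60 were intergenic, or 72.3% (interval 61.8 to 80.8%), against 37.6% of all peaks. Introns held 11 (13.3%, interval 7.56 to 22.2%), against 40.5% of all peaks. The promoter peaks made up 9.64% (interval 4.97 to 17.9%), against 15.6%. The last 4 were annotated to a transcription termination site at Ctla4 and Cd2, to an exon of Cd5 and to the 3′ untranslated region of Btla. Of the 11 intronic peaks, 8 lay in intron 1, in Cd28, Ctla4, Icos, Btla and Cd6, whereas 34.3% of the intronic peaks of the list lay in intron 1. The median distance from the TSS was 30785 bp, against 16023 bp for all peaks, and 63 of the 83 peaks (75.9%) lay beyond 10 kb, against 60.0%. Beyond 100 kb the order was the other way, with 5 peaks (6.02%) against 10.9%. These 5 were 3 peaks beyond Icos and 2 upstream of Pdcd1.

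**Figure D3:**
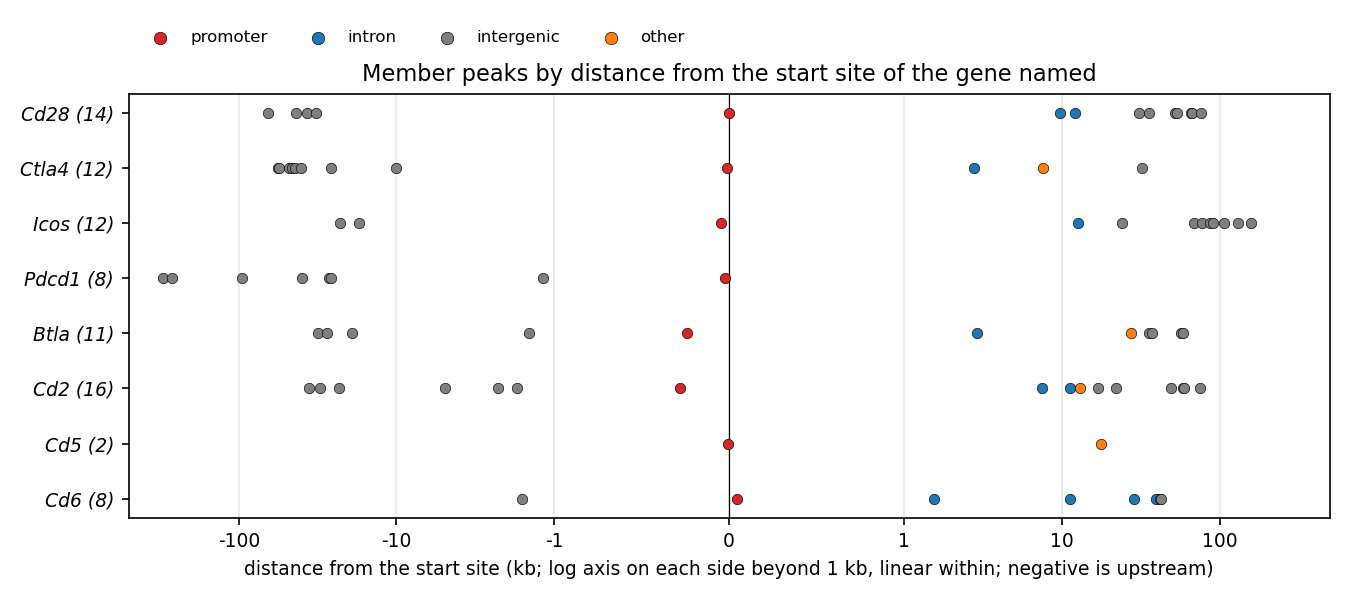
Each of the 83 peaks by signed distance in kb from the TSS of the gene named (linear within 1 kb of the TSS, log beyond; negative is upstream), with the number of peaks per gene in parentheses and the colour giving the class. All 8 genes had a red promoter peak near 0, all 8 peaks named for Pdcd1 were upstream of its TSS, and Icos reached farthest downstream, to 157.9 kb.

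Cd28, Ctla4 and Icos lie next to each other on chromosome 1, all on the plus strand, and their peaks formed one stretch. From the first to the last peak named for any of the 3 genes (chr1:60681125-61136056) the stretch was 454.9 kb long and held 38 peaks, each of them named for 1 of these genes. This was 8.35 peaks per 100 kb, against 3.18 over the assembled chromosomes. When the chromosomes were cut into 5980 tiles of the same length, the median tile held 9 peaks and 8.60% of tiles held 38 or more. The bounds of the stretch were set by its peaks. From the start of Cd28 to the end of Icos, bounds that no peak set, there were 26 peaks in 253.9 kb, a number reached by 5.56% of 10722 tiles.

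Within the stretch, Cd28 and Ctla4 were 162.6 kb apart from TSS to TSS, with 18 peaks between them, and Ctla4 and Icos were 68.9 kb apart with 6. The space between the end of Cd28 and the start of Ctla4 alone held 16 peaks in 135.7 kb. Gaps between neighbouring peaks had a median of 9.15 kb and a few were much wider. The widest was 44.0 kb, between the Icos peaks at 24.1 and 68.6 kb. The next was 32.0 kb, between the Cd28 promoter peak and the nearest peak upstream of it. A gap of 28.9 kb parted the last peak named for Cd28 from the outermost peak named for Ctla4. To the left the next protein-coding gene was Raph1, 179.3 kb from Cd28, and to the right Pard3b, 638.3 kb from Icos.

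**Figure D4:**
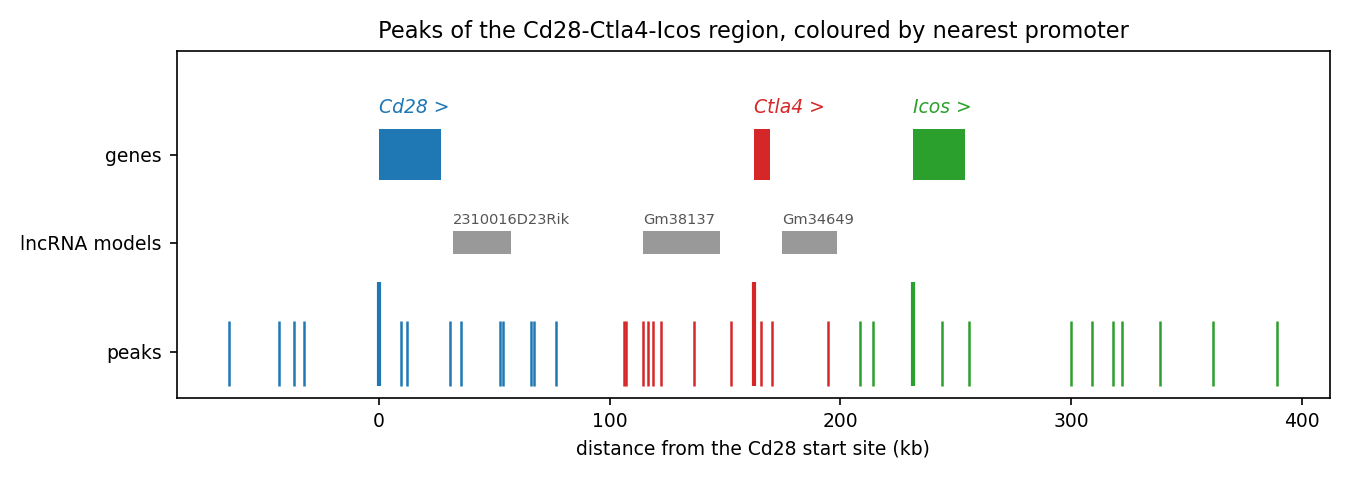
The 38 peaks of the Cd28-Ctla4-Icos region as vertical lines by distance in kb from the Cd28 TSS, coloured by the gene named, with promoter peaks taller; boxes show the 3 genes, read from left to right, and 3 RefSeq lncRNA genes. A gap of 28.9 kb parted the peaks named for Cd28 from those named for Ctla4, and the widest gap, 44.0 kb, lay to the right of Icos after a peak at 24.1 kb from its TSS.

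Cd28 had 14 peaks on both sides of its TSS, from 65.0 kb upstream to 76.8 kb downstream. Besides the promoter peak, 4 lay upstream, at 32.5, 36.9, 43.5 and 65.0 kb. Intron 1 of 3 held 2, at 9.65 and 12.0 kb, the latter with one of the sequences printed above. The other 7 lay beyond the 3′ end of the gene, between 30.8 and 76.8 kb. Of these, 3 fell in the lncRNA gene 2310016D23Rik, which the list annotates as intergenic. Of the 14 peaks, 5 were centred on repeats, more than for any other of the 8 genes. The peaks of Cd28 held letters of 2 to 5 T-lineage families each, with a median of 3. RUNX letters were present in 11 of the 14 and TCF/LEF letters in 10, where all peaks of the list had shares of 38.9% and 29.2%. E2A/HEB letters were present in 2, where the share of all peaks was 29.8%. The families named for single genes, here and below, are a few of those searched and carry no interval.

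Ctla4 is a short gene of 6.81 kb, and 9 of its 12 peaks lay upstream of the TSS, counting the promoter peak. One intronic peak lay at 2.76 kb and a peak at the termination site at 7.64 kb. These and the promoter peak followed each other at less than 5 kb. Farther upstream, 4 peaks formed a run between 48.2 and 40.5 kb before the TSS, over 8223 bp. This run lay across the start of the predicted lncRNA gene Gm38137. The peak at 48.2 kb was centred 132 bp from one predicted TSS of Gm38137 and the peak at 45.9 kb was centred 5 bp from another. The 45.9 kb peak, printed above, had the highest CpG ratio of the 83 peaks, 0.467, with 50.7% G and C. A pair at 56.5 and 55.5 kb stood just outside the run, and single peaks at 26.0 and 10.1 kb led from it to the promoter. The exact letters of the CTCF consensus, which 7.68% of all peaks held, occurred in the peaks at 55.5 and 40.5 kb and in no other peak of the Cd28-Ctla4-Icos region. With 1 mismatch allowed, 21 of the 83 peaks held them rather than 5. The paper reports CTCF and WT1 motifs in a predicted element of Icos, from a different motif search. Which peak of the list that element is was not determined here. On the other side, a lone peak at 32.2 kb lay in the predicted lncRNA gene Gm34649, between Ctla4 and Icos.

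Icos had 12 peaks, and 8 of them lay beyond the 3′ end of the RefSeq Select transcript, from 24.1 to 157.9 kb from the TSS. Upstream of the promoter peak lay 2, at 22.9 and 17.2 kb. The 17.2 kb peak was centred 105 bp from the start of a predicted longer Icos transcript, and its CpG ratio of 0.402 was above that of the Icos promoter peak, 0.311. The only intronic peak lay at 12.6 kb in intron 1 of 4. Beyond the gap that followed the peak at 24.1 kb came 7 more peaks, at 68.6, 77.4, 86.8, 90.4, 107.0, 130.0 and 157.9 kb. Icos remained the nearest gene for all of them, and the next protein-coding gene, Pard3b, starts far to the right. A further 2 peaks were named for 9530026F06Rik and went to Icos when only protein-coding RefSeq Select TSSs were considered. The peak at 157.9 kb held letters of 5 T-lineage families, whereas the Icos peaks as a whole had a median of 1.5. The NFAT letters, GGAAAA, occurred in 8 of the 12 peaks of Icos, against 34.9% of all peaks. TCF/LEF letters occurred in 3 of the 12 and ZEB/Slug letters in 1, against 29.2% and 32.6%.

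Pdcd1 and Btla encode the other inhibitory receptors of the group, and their peaks were arranged differently. All 8 peaks of Pdcd1 were upstream of its TSS and none was inside the gene, which is 14.2 kb long on the minus strand of chromosome 1. The promoter peak was joined by a peak 1172 bp upstream. A pair followed at 25.9 and 26.7 kb, and single peaks at 39.4, 94.7, 265.8 and 304.3 kb. On that side no protein-coding gene started for 1261 kb, up to Fam174a, and no other protein-coding promoter was nearer to these distant peaks. On the other side Neu4 lay 9.97 kb from the end of Pdcd1. A peak beyond the 3′ end of Pdcd1, 17099 bp from its TSS, was named for Neu4, whose TSS was 14961 bp away. The absence of downstream peaks thus holds for peaks named for Pdcd1. Over the 646.6 kb nearer to the Pdcd1 TSS than to any other RefSeq Select TSS the density was 1.55 peaks per 100 kb, the lowest of the 8 genes, against a median of 4.48 over all genes. The single Pdcd1 peak on a repeat was the one at 304.3 kb, on an LTR element of the RLTR17 type.

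Btla had 11 peaks on chromosome 16, with 4 upstream of the promoter peak, 1 in intron 1 of 5, 1 in the last exon and 4 beyond the gene. The peak 1435 bp upstream of the TSS, the promoter peak and the intronic peak at 2896 bp formed a run around the promoter. The 4 peaks beyond the gene came as pairs, at 35.5 and 37.1 kb and at 57.3 and 59.0 kb. Both peaks of the nearer pair were centred on LTR elements of the ORR1B type. The 27.6 kb peak, in the 3′ untranslated region, held no letters of the 6 T-lineage families. TCF/LEF letters occurred in 4 of the 11 peaks and ETS letters in 7, where all peaks had 29.2% and 62.4%.

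Cd2, the member with the most peaks, lies on the minus strand of chromosome 3 and is 12.0 kb long. It was framed by 2 runs of 4 peaks. One began at the promoter peak and went on at 1.71, 2.28 and 4.89 kb upstream, the last in the predicted lncRNA gene Gm32803. The other covered the 3′ part, with peaks in intron 3 and intron 4 of 4, at the termination site and 16.9 kb from the TSS. Another 3 peaks lay upstream, at 23.2, 30.4 and 35.6 kb, and 5 more downstream, out to 75.6 kb. The peak at 35.6 kb held letters of 5 T-lineage families and is printed above. Between it and the promoter, the peak at 30.4 kb held none of the 6 families, and the peak at 23.2 kb held no match of any of the 13 families searched. ETS letters occurred in 12 of the 16 peaks and E2A/HEB letters in 7, where all peaks had 62.4% and 29.8%. The next protein-coding gene on the upstream side was Igsf3, 88.7 kb away.

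Cd5 and Cd6 are related genes on the minus strand of chromosome 19, with 91.1 kb between their TSSs and 12 peaks in that interval. Cd6 had 8 peaks, of which 5 were inside the gene. Besides the promoter peak these were 3 in intron 1 of 12, at 1.55, 11.3 and 28.7 kb, and 1 in intron 12. Runs of 3 peaks stood at both ends of the gene, from 1590 bp upstream to 1551 bp downstream of the TSS and from 39.6 to 42.5 kb. Peaks were densest here, with 15.4 per 100 kb of the 51.8 kb nearest to the Cd6 TSS. Cd6 peaks were rich in G and C, with a median of 53.6%, against 48.9% for all peaks.

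Cd5 had the fewest peaks by name, the promoter peak and a peak in exon 8 of 11 at 17.7 kb. This low number depended on a neighbour. The lncRNA gene A430093F15Rik starts close to Cd5, its own promoter peak is centred at -1801 bp from the Cd5 TSS, and 4 peaks were named for it. When only protein-coding RefSeq Select TSSs were considered, those 4 peaks and 1 peak named for Vps37c went to Cd5, which then had 7. By the same rule Icos had 14, Pdcd1 10 and the other 5 genes kept their numbers, for a total of 92. Both Cd5 peaks held letters of 3 T-lineage families.

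Peaks close to one another were common. With neighbours joined at up to 5 kb between centres, 51 of the 83 peaks (61.4%, interval 50.7 to 71.2%) stood in runs of 2 or more, against 52.4% of all peaks. Runs of 3 or more held 24 (28.9%, interval 20.3 to 39.4%), against 26.3%. Both intervals include the value for all peaks. Repeats were the centre of 16 of the 83 peaks (19.3%, interval 12.2 to 29.0%), against 15.1%. Of these, 7 were LTR elements, 4 SINEs and 3 LINEs. The LTR share of 43.8% was next to 43.5% over all peaks centred on repeats.

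The 6 T-lineage families were then compared with the list. TCF/LEF letters occurred in 34 of the 83 peaks (41.0%, interval 31.0 to 51.7%), against 29.2% of all peaks. Outside promoters they occurred in 32 of 75 (42.7%, interval 32.1 to 53.9%), against 31.6% of all non-promoter peaks, just below the interval. In the Cd28-Ctla4-Icos region the share was 19 of 38 (50.0%, interval 34.9 to 65.2%), and in the other 5 genes 15 of 45 (33.3%, interval 21.4 to 47.9%). RUNX letters occurred in 45.8% of the 83 peaks (interval 35.5 to 56.4%), against 38.9%. Outside promoters the RUNX share was 44.0% (interval 33.3 to 55.3%), next to 42.5% of all non-promoter peaks. GATA letters occurred in 30.1% (interval 21.3 to 40.7%), against 24.1%, with 39.5% in the Cd28-Ctla4-Icos region (interval 25.6 to 55.3%). The ETS share, 62.7%, was next to that of all peaks, 62.4%. E2A/HEB letters occurred in 23 of the 83 peaks (27.7%, interval 19.2 to 38.2%), against 29.8%. The ZEB/Slug share was 22.9% (interval 15.2 to 33.0%), against 32.6%. At least 1 of the 6 families was found in 78 of the 83 peaks (94.0%), but also in 93.3% of all peaks, so that its presence did not set these peaks apart. The peaks of the region were also poorer in G and C than the list, with a median of 44.1% against 48.9%, and the part of base composition in these shares was not tested.

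A further 7 families were searched in the same way. NFAT acts below calcium signals and AP-1 below costimulation in T cells. The NFAT letters occurred in 30 of the 83 peaks (36.1%, interval 26.6 to 46.9%), against 34.9%. In the Cd28-Ctla4-Icos region the share was 50.0% (interval 34.9 to 65.2%) and in the other 5 genes 24.4% (interval 14.2 to 38.7%). Both of these intervals include the share of all peaks, that of the region only at its edge (34.85 against 34.90%). AP-1 letters, TGANTCA, occurred in 21.7% (interval 14.2 to 31.7%), against 15.3%. The letters of NF-kB (GGGNNTTCC), STAT (TTCNNNGAA), IRF and CTCF occurred in 8, 10, 6 and 5 of the 83 peaks. For these 4 families the intervals include the shares of all peaks, 8.31, 14.1, 7.38 and 7.68%. SP/KLF letters were less common than in all peaks, in 7 of 83 (8.43%, interval 4.15 to 16.4%), against 24.1%. Outside promoters they occurred in 6 of 75 (8.00%, interval 3.72 to 16.4%), against 14.6% of all non-promoter peaks, which is inside the interval.

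**Figure D5:**
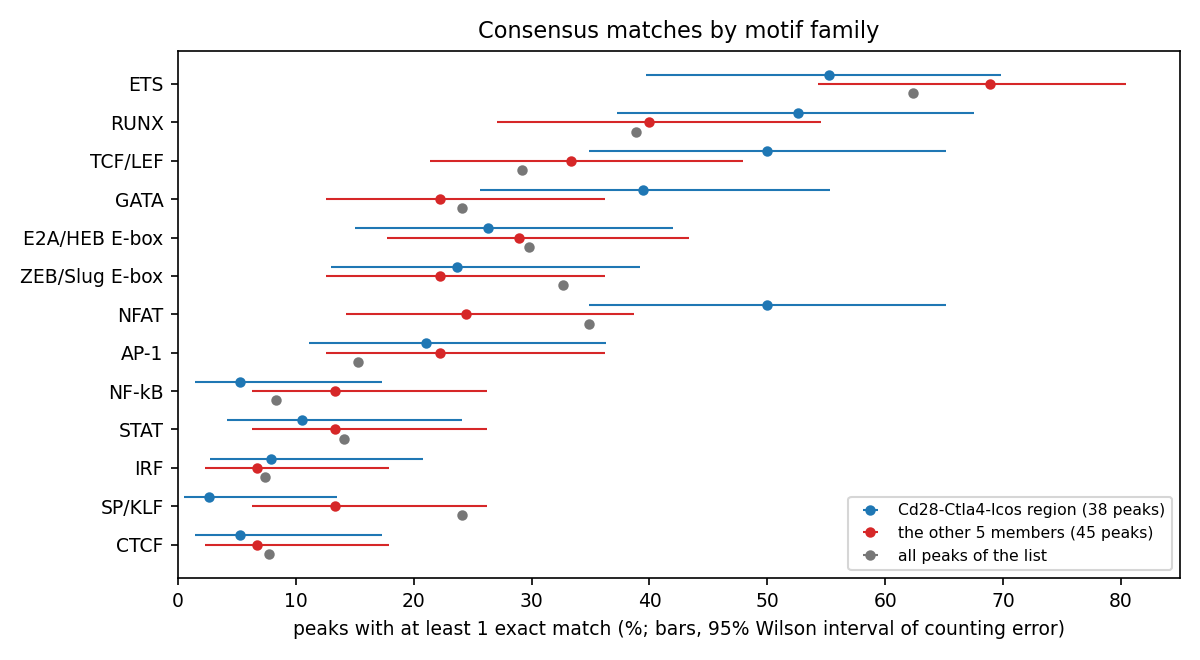
Share of peaks in percent with at least 1 exact match of each motif family, for the 38 peaks of the Cd28-Ctla4-Icos region (blue), the 45 peaks of the other 5 genes (red) and all 84243 peaks (grey), with 95% Wilson intervals of counting error. The blue point lay above the grey for TCF/LEF (50.0 against 29.2%), GATA (39.5 against 24.1%) and NFAT (50.0 against 34.9%). For NFAT the blue interval just includes the grey share. Both coloured points lay below the grey for SP/KLF.

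The ligands of the 8 receptors, other receptors of the same kind and the signalling proteins below them were counted for context. All 9 ligand genes had at least 1 peak, with a median of 5 per gene, and 7 had a promoter peak. Among them Alcam, which encodes the ligand of CD6, had 12 peaks, Cd80 7, and Cd86 and Cd48 6 each. Cd80 had no promoter peak. The 19 other receptors all had a peak, with a median of 6, and 14 had a promoter peak. Cd226 had 19 peaks, Vsir 15 and Cd84 10, while Slamf1, whose product was used in sorting HSCs and MkPs, and Cd101 had 8 each. The 19 signalling genes all had a peak and a promoter peak, with a median of 8 peaks. Pik3r1, a regulatory subunit of phosphoinositide 3-kinase that CD28 and ICOS recruit, had 50, Nfkb1 26 and Prkcq 23. The median of the 8 genes, 11.5, was above those of the 3 lists, whereas their most peak-rich member, Cd2 with 16, was below Cd226 and below these 3 signalling genes.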

How the data were processed

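The authors sorted 6 cell types in 2 replicates, made ATAC-seq libraries and processed them with 2 versions of the ENCODE pipeline on mm10, the build that the labels also name. They joined the reproducible peaks of each cell type, kept non-overlapping ones with chromVAR and annotated them with HOMER (version 4.10.2 per the submitters' processing notes). The deposited table is this 1 pooled list. Its score column, as deposited by the authors, was 0 in all 84243 peaks and was not used. The other deposited columns give positions, the class, the nearest promoter and the distance to its TSS. Fixed peak widths and the pooling remove any measure of how open a region is, of its width or of the cell type, and the depth per sample is unknown. No statistical test across samples was possible.

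From this list, the peaks of the 8 genes were taken by gene name. Gene positions and bases came from RefSeq release 108 on GRCm38.p6, the same assembly as mm10. For 82 of the 83 peaks the listed distance was within 2 bp of that to the nearest curated RefSeq TSS. Promoter peaks had a centre within 500 bp of a TSS. Intervals are 95% Wilson intervals and cover counting error only. Motif letters were searched on both strands, in a search tested on simulated data (1300 of 1300 planted matches found in 13 families). Pathway lists held 9 ligands, 19 other receptors and 19 signalling genes, and up to 4 genes with the most peaks were named per list (5 where tied), except 1 signalling gene that is not reported here. Non-member genes were named where they flank a member or hold one of its peaks. The members, motifs and lists were chosen with earlier results of these data known. The limits of the CpG ratio were added after seeing the data. Calculations used Python 3.11.15, numpy 2.4.6, pandas 2.3.3 and samtools 1.23.1.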

Additional observations from a re-analysis of the deposited data

How the results depend on the processing

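No paired analysis was possible because the list pools all samples and carries no replicate values, and for the same reason no replicate could be left out. Of 38 alternatives for the summary values, 36 stayed within 1.5 times the count, or within the interval of the share. The 83 peaks became 45 when a gene was given only its body and 10 kb on each side, a definition that omits distal peaks by construction. The 51 peaks in runs became 29 with a joining distance of 2 kb (34.9%, interval 25.6 to 45.7%, against 28.5% of all peaks). Without peaks centred on repeats 67 peaks were left. Basal plus extension domains, which overlap between neighbouring genes, gave 116 with each peak counted once. Gene by gene, where a peak can count for several genes, they held from 11 peaks at Cd6 to 24 at Cd28. The 8 of 8 low CpG promoter peaks held at ratio limits of 0.4 and 0.75, where 12.8 and 44.7% of all promoter peaks fell under the limit. The highest of the 8 ratios was 0.378, so these limits, added after seeing the data, could not change the count. Both are among the 36. Of 63 alternatives for single genes and motif families, 29 moved the count by more than 1.5 times. These included Cd5, which had 2 peaks by name, 7 by RefSeq Select TSS or by gene body and 17 by domain. Within the central 200 bp, a shorter window with fewer chances of a match, GATA letters fell from 25 to 8 peaks, NF-kB from 8 to 2, NFAT from 30 to 12, E2A/HEB from 23 to 10 and TCF/LEF from 34 to 16. Allowing 1 mismatch raised AP-1 from 18 to 79, STAT from 10 to 76 and IRF from 6 to 56. It also raised NF-kB from 8 to 47 and CTCF from 5 to 21. These counts were made for the 83 peaks only, so no share of all peaks stands beside them. Whether the TCF/LEF and NFAT shares of the Cd28-Ctla4-Icos region stay above the list in the central bases was not tested.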

Other observations

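Of the 83 peaks, 9 lay inside RefSeq lncRNA genes that the list does not name as the nearest promoter. Gm38137 held 4 of them and 2310016D23Rik 3, all in the Cd28-Ctla4-Icos region. Among the peaks that the list calls intergenic, 3 were centred within 500 bp of a predicted RefSeq start site, at 5, 105 and 132 bp, and the peak at 5 bp is also 1 of the 4 in Gm38137. Under an annotation with predicted transcripts these 3 would count as promoter peaks. Neither the 9 nor the 3 has a share of all peaks beside it, so whether such counts are usual for the list is not known here. The peak upstream of Cd2 at 35.6 kb was the only one of the 83 whose nearest curated RefSeq TSS belonged to another gene, Gm32900 at 31029 bp.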
